A study of Homo sapiens with 60 samples.

Results

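NRF2, the transcription factor encoded by NFE2L2, and 8 of its antioxidant target genes (GCLC, GCLM, TXNRD1, SRXN1, NQO1, HMOX1, AKR1B10 and AKR1C1) were followed through 60 RNA-seq libraries of lung cancer cells exposed to osimertinib, a third-generation EGFR inhibitor. The 9 genes were taken by name from the 19712 gene symbols that are measured, and all 9 were present both as estimated counts and as length-scaled abundances. The cells were 4 established EGFR-mutant lines of non-small cell lung cancer, PC9, HCC827, H1975 and HCC2935, each in 5 arms of 3 biological replicates. DMSO control cells had grown for 21 days without drug before 24 h of vehicle, and acute cells had the same 21 days before 24 h of 500 nM osimertinib. Drug-tolerant persisters (DTP) were the cells still present after 21 days in 500 nM osimertinib. A short washout added 24 h without drug to the persisters, and a long washout lasted 7 days in PC9, 3 days in H1975, 4 days in HCC827 and 10 days in HCC2935. DMSO and acute cells therefore share the drug-free culture that the other arms lack, the long washout differs in length between lines, and each line is a single cell line.

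NRF2 is held low in unstressed cells by KEAP1, an adaptor of the CUL3 and RBX1 ubiquitin ligase, which marks NRF2 protein for degradation. Oxidants and electrophiles modify KEAP1, NRF2 protein then accumulates, pairs with a small MAF protein and binds antioxidant response elements next to its targets, while BACH1 competes for the same elements and represses several of them, HMOX1 above all. Because control acts mainly on the protein, the NFE2L2 transcript does not measure NRF2 activity, and each target also answers to other factors. Loss of KEAP1 control is a recurrent event in lung adenocarcinoma.

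The libraries held 17715463 to 49134084 estimated counts each, with medians of 40168314 in PC9, 42919162 in H1975, 19689315 in HCC827 and 21614462 in HCC2935. In all 60 libraries the most similar library by correlation came from the same line, and in 46 of 60 it came from the same arm as well. PC9 long washout replicate 3 was closest to a short-washout library of PC9, and results that rest on it are given with and without it. Nothing but the label biological replicate says how replicates were separated, so p-values measure the spread between these samples. The epithelial keratins KRT8, KRT18 and KRT19 had means of at least 388 CPM (counts scaled to library size) in every arm of every line, whereas the lung markers NKX2-1 and NAPSA stayed at or below 3.33 and 2.85 CPM in PC9, and the surfactant gene SFTPB stayed at or below 1.46 CPM in every line. In H1975 the mean of CDH1, an epithelial cadherin, ran from 254 CPM in DMSO down to 4.23 CPM in its lowest arm, and that of EPCAM, an epithelial adhesion molecule, from 191 to 18.1 CPM. EPCAM was highest under DMSO in the other lines too, and ran down from 565 to 256 CPM in PC9, from 451 to 123 CPM in HCC827 and from 600.4 to 299.8 CPM in HCC2935. CDH1 was lowest under DMSO in PC9 (328 CPM, up to 807 CPM), and its lowest arm in HCC827 was at 285 CPM, against 1053 CPM in DMSO. The leukocyte marker PTPRC stayed at or below 3.7 CPM and the endothelial marker PECAM1 reached 24.1 CPM, in PC9 under DMSO. Of the fibroblast collagens, COL1A1 was lowest under DMSO in every line and ran from 69.9 to 283 CPM in H1975, from 63.1 to 167 CPM in HCC2935, from 18.7 to 102 CPM in HCC827 and from 21.9 to 41.6 CPM in PC9, while COL3A1 reached at most 23.3 CPM, in HCC827. The part of these marker shifts in the results was not tested. DUSP6, a feedback gene of ERK signalling, fell by 3.4 to 6.0 on the log2 scale under acute osimertinib in the 4 lines, and MKI67, a proliferation marker, fell by 1.28 to 2.3. In persisters DUSP6 was lower than DMSO in 3 lines but gave -0.34 in HCC827 (adjusted p = 0.48, edgeR). After the long washout DUSP6 was lower than DMSO in 3 lines and higher in HCC827 (0.57, adjusted p = 0.0257, edgeR). MKI67 was lower than DMSO in the persisters of all 4 lines, by 1.46 to 2.35. It was still lower after the long washout in HCC827 (-1.49), H1975 (-2.04) and HCC2935 (-0.76), and gave -0.33 in PC9 (adjusted p = 0.172, edgeR). Against persisters the long washout raised it in PC9 (1.12) and HCC2935 (1.55) only. The part of proliferation in the results was not tested. In bulk RNA a lower level in every cell and a larger share of cells with a low level cannot be told apart.

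The antioxidant response element has the core TGACNNNGC, and the windows around the start sites of the members were searched for it because the members are taken as targets acting through it. RefSeq promoters (GRCh38.p14, 250 bases before to 50 bases after a start site) were at hand for 7 of the 9 members, in 9 promoters. On either strand, 3 of these 9 promoters held the core, against 13.3% of all 35116 promoters in the same table, and they belonged to 2 members, GCLM and TXNRD1. The matches are shown with 10 flanking bases on each side and the core in capitals.
GCLM, chr1:93909446-93909474, plus strand, opposite to the gene: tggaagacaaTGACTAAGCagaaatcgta
TXNRD1, chr12:104215670-104215698, plus strand: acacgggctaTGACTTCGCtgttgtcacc
TXNRD1, chr12:104215761-104215789, minus strand, opposite to the gene: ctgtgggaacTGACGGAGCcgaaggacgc
TXNRD1, chr12:104286920-104286948, minus strand, opposite to the gene, in another promoter: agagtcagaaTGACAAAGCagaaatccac
Their centres lie at -30 for GCLM and at -95, -4 and -98 for TXNRD1, counted from the start site of the promoter concerned. The related AP-1 site TGANTCA, searched on both strands, was in 0 of the 9 member promoters and in 7.71% of all promoters, and it overlapped none of the 4 matches. A match describes letters in a window only, and the windows do not reach distal elements.

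In GRCh38.p14 the members lie apart from each other, with NFE2L2 at chr2:177230303-177264727 on the minus strand, GCLC at chr6:53497341-53545101 on the minus strand and GCLM at chr1:93885199-93909430 on the minus strand. TXNRD1 is at chr12:104215779-104350307 on the plus strand, SRXN1 at chr20:646615-653200 on the minus strand and NQO1 at chr16:69709401-69726560 on the minus strand. HMOX1 is at chr22:35381096-35394207, AKR1B10 at chr7:134527567-134541412 and AKR1C1 at chr10:4963415-4983283, all on the plus strand. In the GENCODE transcripts, 84.9% of the 31-base words of SRXN1 also occur in the overlapping gene AL121758.1 on the same strand, 32.9% of those of AKR1C1 occur in its neighbour AKR1C2, and 21.7% of those of AKR1B10 occur in AKR1B15. Of the words of NFE2L2, 16.4% occur in AC019080.1, which overlaps it on the same strand. For NQO1, 16.5% occur in AC092115.2, which overlaps it on the opposite strand. The levels of SRXN1, AKR1C1, AKR1B10, NFE2L2 and NQO1 are therefore uncertain to the extent that the authors' counting divided such reads.

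Before any drug the lines already differed in most of the targets, and PC9 stood highest in 7 of the 9 genes on the CPM scale. All 9 members differed between lines under DMSO, beside 91.2% of all genes tested (57.3% for HCC827 against H1975, 64.0% and 64.5% for PC9 against HCC827 and H1975, and 66.4%, 67.0% and 69.1% for HCC2935 against HCC827, H1975 and PC9), so a difference as such does not set the members apart. NFE2L2 itself was the most even of the 9, with means of 155 CPM in HCC2935, 145 CPM in HCC827, 137 CPM in PC9 and 110.1 CPM in H1975, a ratio of 1.41 from highest to lowest. H1975 lay below its neighbour PC9 by 0.33 ± 0.09 on the log2 scale (SE, adjusted p = 0.00419), while the other neighbours in that order did not differ beyond their spread (adjusted p = 0.383 and 0.369). The distance between PC9 and H1975 shrank to 0.06 (adjusted p = 0.534 by limma) on the length-scaled values, where HCC2935 exceeded PC9 by 0.59 (adjusted p = 3.00e-05). On that scale the other neighbours differed too. HCC827 against HCC2935 gave -0.36 (adjusted p = 0.0017, limma) and PC9 against HCC827 gave -0.23 (adjusted p = 0.0212, limma).

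The thioredoxin reductase TXNRD1 stepped down from PC9 (mean 1739.6 CPM) through HCC827 (926 CPM) and H1975 (359 CPM) to HCC2935 (248 CPM), with every neighbouring pair apart. GCLM, the modifier subunit of the enzyme that opens glutathione synthesis, was at 247 CPM in PC9, 83.6 CPM in HCC827, 46.4 CPM in H1975 and 37.6 CPM in HCC2935, and the last pair did not pass (0.28 ± 0.14, adjusted p = 0.0803). SRXN1, the sulfiredoxin that repairs overoxidised peroxiredoxins, ran from 240.4 CPM in PC9 through 134 CPM in H1975 and 59.4 CPM in HCC2935 to 49.7 CPM in HCC827.
HMOX1, the heme oxygenase, departed from that order. Its DMSO replicates read 152, 131 and 172 CPM in H1975, against 22.1, 21.1 and 23.3 CPM in HCC2935, and 17.4 CPM in PC9 and 16.6 CPM in HCC827 on average. H1975 thus exceeded HCC2935 by 6.76-fold (log2 2.76 ± 0.14, adjusted p = 2.16e-09). The step from HCC2935 to PC9 (0.35, adjusted p = 0.0324) was lost without PC9 DMSO replicate 1 or 3 or HCC2935 DMSO replicate 1 or 3, with adjusted p from 0.0594 to 0.124.

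The aldo-keto reductases, which reduce carbonyl compounds and steroids, separated the lines most. AKR1C1 replicates read 74.8, 55.5 and 36.7 CPM in PC9, 0.905, 1.91 and 3.07 CPM in HCC2935, 1.34, 2.2 and 1.92 CPM in H1975, and 0.31, 0.0478 and 0.271 CPM in HCC827. The HCC827 values rest on 6.4, 1.16 and 6.49 estimated counts, so the ratio of 266 between PC9 and HCC827 is set by very few reads. AKR1B10 replicates read 30.0, 37.8 and 33.4 CPM in PC9, where HCC827 averaged 4.18 CPM, H1975 1.48 CPM and HCC2935 0.999 CPM. NQO1, a quinone reductase widely used to read NRF2 activity, averaged 576 CPM in PC9, 459 CPM in HCC2935, 296 CPM in H1975 and 285 CPM in HCC827. Its PC9 lead over HCC2935 (0.32, adjusted p = 0.00711) was lost without PC9 DMSO replicate 1 (0.23, adjusted p = 0.052) and turned to -0.09 (adjusted p = 0.345) on length-scaled values. NFE2L2 shifted the same way between these lines on those values, from -0.18 to -0.59 for PC9 against HCC2935. Per transcript length (TPM, counts scaled for transcript length and library size), TXNRD1 and NQO1 were the most abundant pair in every line, at 678 and 667 TPM in PC9 and at 129 and 709 TPM in HCC2935, and one of the aldo-keto reductases was the lowest in all lines but PC9, where HMOX1 was lowest at 11.8 TPM.

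**Figure D1:**
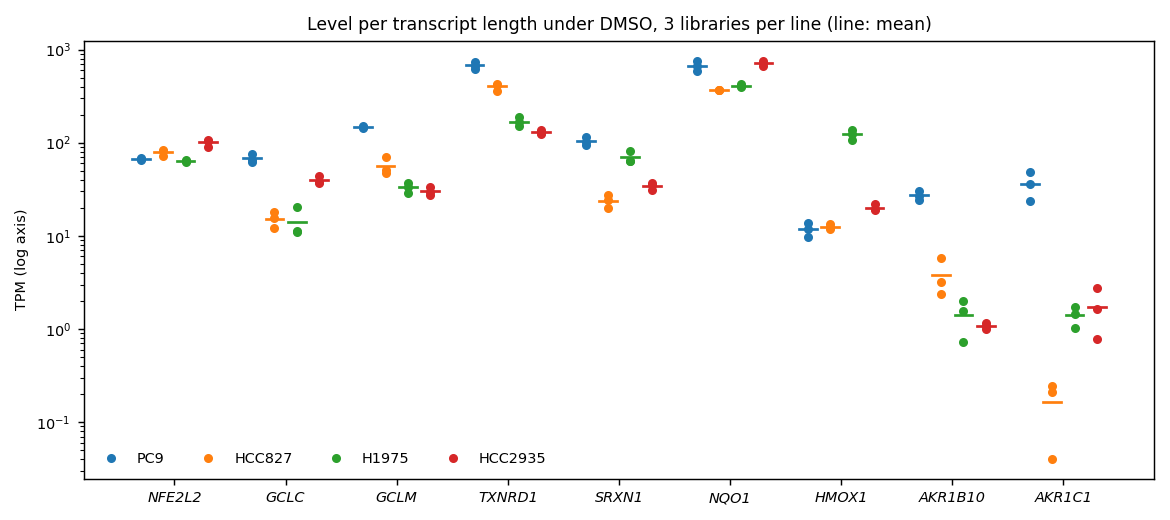
Level of each gene under DMSO in TPM (y, log axis), with 3 points per line for the replicates and a bar at their mean. TXNRD1 and NQO1 sit highest in each line, HMOX1 is highest in H1975 (mean 123 TPM), and AKR1B10 and AKR1C1 reach means of 27.2 and 36.2 TPM in PC9 and at most 3.75 TPM in the other lines.

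Osimertinib moved the members in both directions, and which gene moved depended on the line. After 24 h, 23 of the 36 gene and line pairs passed the test (12 higher, 11 lower), beside 50.7% of all gene and line pairs tested (24.4% higher, 26.2% lower). The members of PC9 passed in 8 of 9 cases (background 68.5%), those of HCC827 in 4 (42.3%), of H1975 in 6 (44.9%) and of HCC2935 in 5 (47.1%). GCLM and SRXN1 fell in all 4 lines, and no other member passed the test in 1 direction in all 4. NFE2L2 passed as higher in 2 lines and AKR1C1 in 3, and neither passed as lower in any line. In persisters 20 of 35 tested pairs differed from DMSO (8 higher and 12 lower, background 51.6%, or 25.7% higher and 26.0% lower), with GCLM and NQO1 lower in all 4 lines, and 19 of 36 differed from acute cells (8 higher and 11 lower, background 34.4%, or 17.0% higher and 17.4% lower), with SRXN1 higher in all 4. By line the background was 71.3% in PC9, 36.7% in HCC827, 45.7% in H1975 and 52.5% in HCC2935 for persisters against DMSO, and 39.8%, 29.5%, 26.2% and 42.4% in the same order against acute cells. With 9 genes a line, these shares are given beside the background and nothing particular to the group is read from them. A gene is said to have risen or fallen only where the edgeR quasi-likelihood test gave a Benjamini-Hochberg adjusted p under 0.05 across all genes tested in that line. The 2 comparisons with DMSO share their control libraries, as do the comparisons that share the persister or acute libraries.

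**Figure D2:**
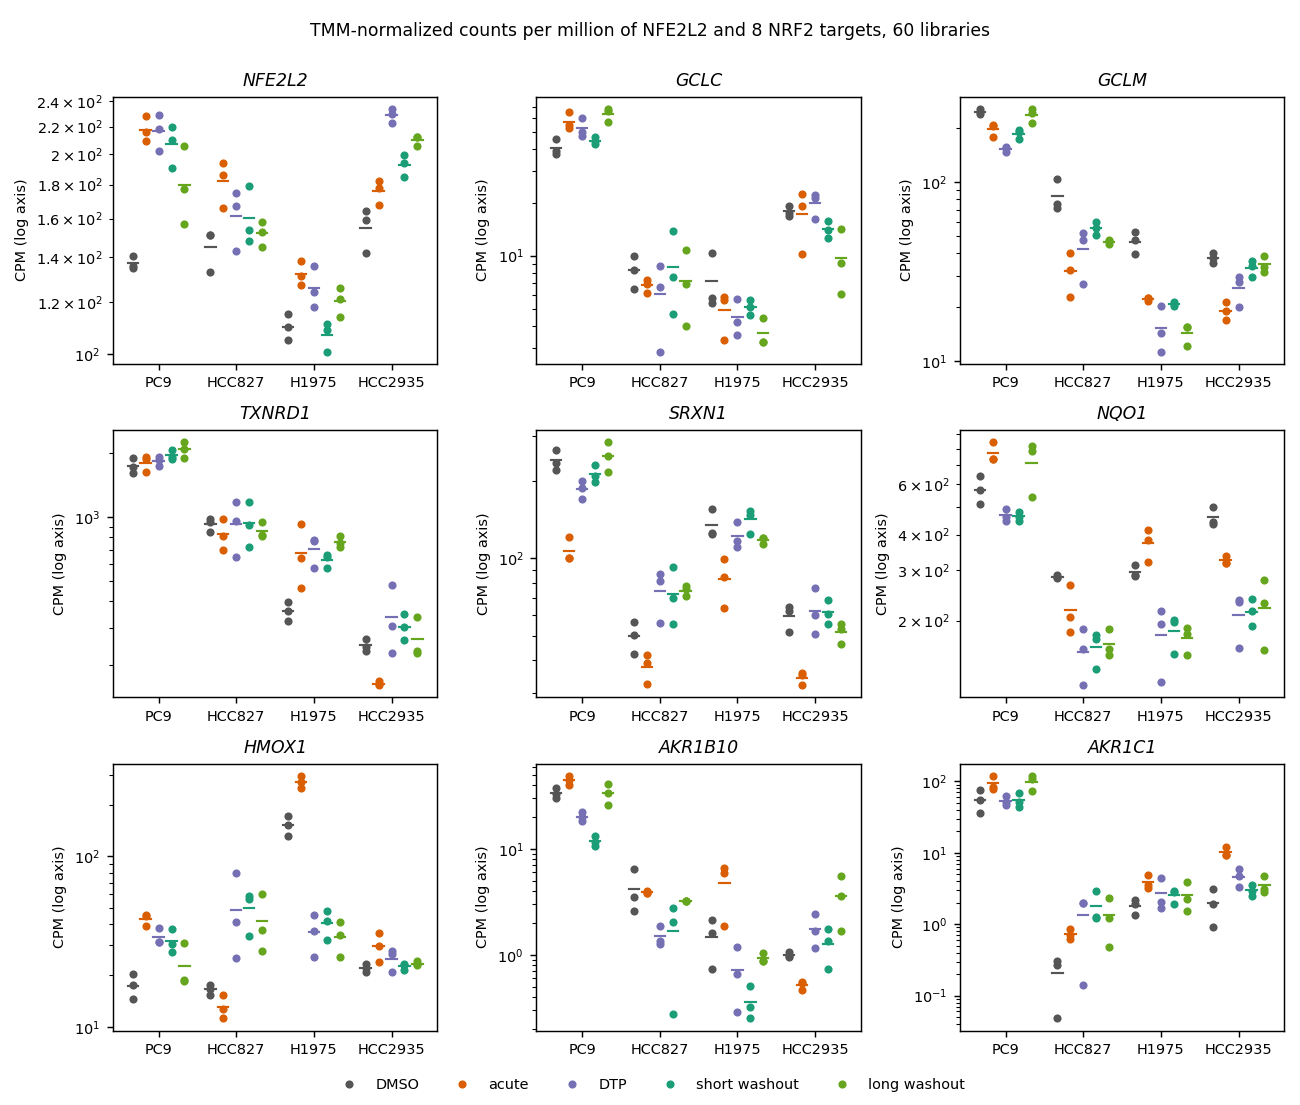
Level in CPM (y, log axis, own range in each panel) of the 9 genes in 60 libraries. Each point is a library, colours are the 5 arms in the order DMSO, acute, persisters, short washout and long washout within each line, and bars are means of 3 replicates. HMOX1 in H1975 stands at 131 to 172 CPM in DMSO, at 249 to 296 CPM in acute cells and at or below 47.4 CPM in the later arms.

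**Figure D3:**
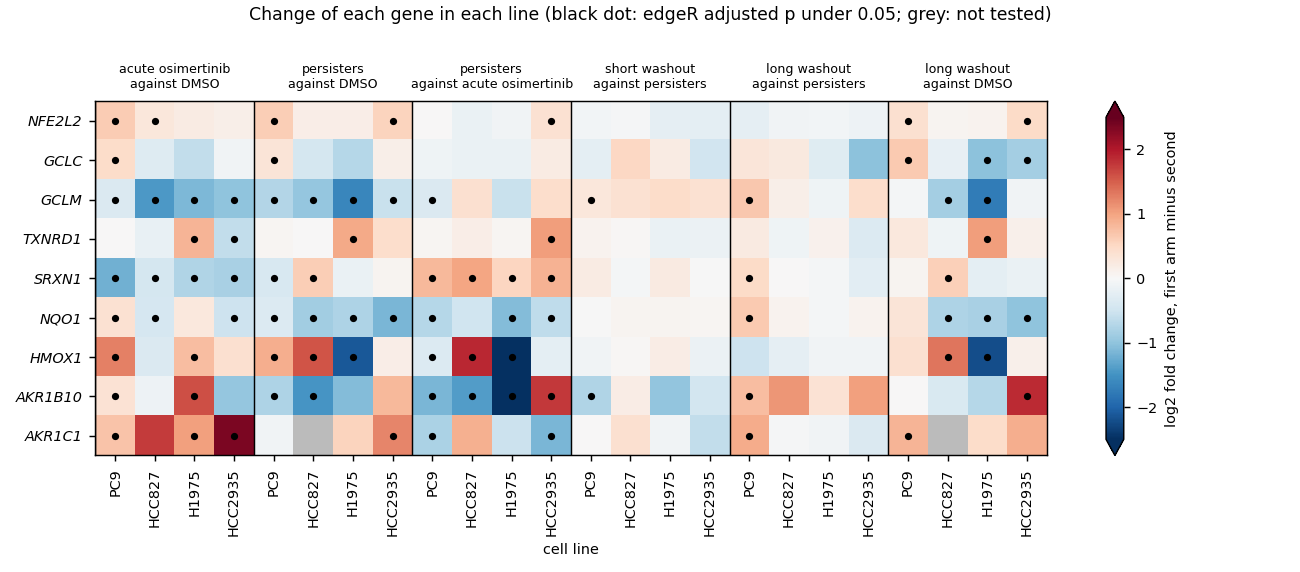
Log2 fold change of each gene (rows) for the 6 comparisons, 4 lines each (columns), first arm minus second. Red is higher and blue lower, black dots mark adjusted p under 0.05, and AKR1C1 in HCC827 was not tested in 2 comparisons (grey). GCLM is lower in all 4 lines in both comparisons of drug with DMSO, and most comparisons of washout with persisters carry no dot.

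NFE2L2 rose under drug in part of the lines and fell in none. In PC9 the replicates went from 140.4, 135 and 136 CPM in DMSO to 216, 209 and 228 CPM in acute cells and 202, 218 and 229 CPM in persisters. The groups did not overlap, and the rise was 1.55-fold after 24 h (log2 0.63 ± 0.06, adjusted p = 2.40e-05) and 1.54-fold in persisters (0.62 ± 0.06, adjusted p = 1.39e-05). In HCC2935 the DMSO replicates of 164, 142 and 159 CPM were followed by 182, 178 and 168 CPM in acute cells and 234, 223 and 230.2 CPM in persisters. Here the persisters lay above both other groups, by 0.55 over DMSO (adjusted p = 6.92e-04) and by 0.39 over acute cells (adjusted p = 0.00481), while the acute difference of 0.15 did not pass (adjusted p = 0.168). HCC827 rose from 151, 133 and 151 CPM to 194, 166 and 186 CPM in acute cells (0.29, adjusted p = 0.0429), a call that was lost without any 1 of DMSO replicates 1, 2 and 3 and acute replicates 1 and 3 (adjusted p from 0.0548 to 0.157). H1975 stood at 110.1, 105 and 115 CPM in DMSO and 131, 138 and 127 CPM in acute cells, apart from each other but short of the threshold (0.20, adjusted p = 0.0887), and its persisters differed from DMSO by 0.16 (adjusted p = 0.213). On the length-scaled values the H1975 acute difference passed (0.21, adjusted p = 0.0445, limma).

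GCLM fell in all 4 lines after 24 h and in persisters, by amounts that differed between lines. Replicates in HCC827 went from 74.9, 104 and 71.9 CPM in DMSO to 32.2, 22.8 and 40.1 CPM in acute cells and 26.9, 47.3 and 52.1 CPM in persisters. In H1975 they went from 47.3, 39.6 and 52.3 CPM to 21.6, 22.4 and 22.6 CPM and then to 14.3, 20.4 and 11.3 CPM. In both lines every drug-treated library lay below every DMSO library, with falls of 1.43 and 1.13 on the log2 scale after 24 h (2.7-fold and 2.19-fold lower, adjusted p = 7.59e-04 and 3.83e-04). HCC2935 fell from 37.7, 35.1 and 40.2 CPM to 16.9, 21.4 and 19.1 CPM in acute cells (2.01-fold lower, adjusted p = 1.87e-04). PC9, which held the most GCLM, fell least after 24 h, from 255, 240.3 and 246 CPM to 205, 177 and 209 CPM (-0.37, adjusted p = 0.00217), and stood at 155, 147 and 157 CPM in persisters. The falls in persisters against DMSO were 0.73 in PC9, 0.97 in HCC827, 1.63 in H1975 and 0.56 in HCC2935 (adjusted p from 2.29e-06 to 0.014). The HCC827 call in persisters was lost without DMSO replicate 2 (adjusted p = 0.0522), and that of HCC2935 on length-scaled values (-0.41, adjusted p = 0.0539, limma). From acute cells to persisters PC9 fell further by 0.36 (adjusted p = 0.00618), but by 0.09 (adjusted p = 0.421) on length-scaled values.

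GCLC, the catalytic subunit of the same enzyme, rose in PC9, where GCLM fell, and passed in no other line after 24 h or in persisters. PC9 replicates rose from 45.9, 37.7 and 39.2 CPM to 65.1, 52.7 and 54.9 CPM in acute cells (0.45 ± 0.11, adjusted p = 0.00532) and stood at 60.7, 47.7 and 50.5 CPM in persisters (0.33, adjusted p = 0.0213). The persister call was lost without DMSO replicate 2 or 3 or DTP replicate 1 (adjusted p from 0.0653 to 0.0949). In the other lines GCLC was low and its groups overlapped. After 24 h it gave -0.32 in HCC827, -0.61 in H1975 and -0.08 in HCC2935 (adjusted p = 0.276, 0.169 and 0.813). H1975 read 5.75, 5.37 and 10.4 CPM in DMSO and 3.53, 4.22 and 5.67 CPM in persisters (-0.71, adjusted p = 0.0872), which passed without DMSO replicate 2 (-0.89, adjusted p = 0.0428) and under DESeq2 (-0.72, adjusted p = 0.0479). HCC827 and HCC2935 gave differences of -0.43 and 0.14 in persisters (adjusted p = 0.421 and 0.479).

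SRXN1 fell within 24 h in every line and was higher again in persisters. PC9 replicates read 265, 235 and 221 CPM in DMSO, 100, 100.2 and 121 CPM in acute cells and 200.2, 169.6 and 187 CPM in persisters. HCC2935 replicates read 62.3, 64.4 and 51.6 CPM, then 35.2, 35.6 and 32.1 CPM, then 76.7, 50.6 and 60.0 CPM. The acute libraries lay below both other groups in these lines, and the falls from DMSO were 1.21 ± 0.10 in PC9 (adjusted p = 6.93e-06) and 0.82 ± 0.11 in HCC2935 (adjusted p = 2.23e-04). H1975 fell from 124, 155 and 125 CPM to 99.4, 84.9 and 63.9 CPM (-0.76, adjusted p = 0.00952). HCC827 fell from 50.1, 56.4 and 42.5 CPM to 42.0, 32.5 and 39.0 CPM (-0.43, adjusted p = 0.0337), a call lost without DMSO replicate 1 or 2 or acute replicate 2 or 3 (adjusted p from 0.0732 to 0.128) and on length-scaled values (-0.36, adjusted p = 0.0921).
From acute cells to persisters SRXN1 rose by 0.81 in PC9, 0.99 in HCC827, 0.54 in H1975 and 0.87 in HCC2935 (adjusted p from 3.37e-04 to 0.0399). The H1975 rise did not hold without acute replicate 2 or 3 or any 1 of the DTP replicates 1, 2 and 3 (adjusted p from 0.061 to 0.128). Against DMSO the persisters were lower in PC9 (-0.41, adjusted p = 0.00147) and higher in HCC827 at 55.9, 81.2 and 87.2 CPM (0.61, adjusted p = 0.0303), and H1975 and HCC2935 gave -0.17 and 0.06 (adjusted p = 0.3 and 0.776). The HCC827 groups overlapped, and its call was lost without DMSO replicate 1 or 3 or DTP replicate 2 or 3 (adjusted p from 0.087 to 0.103). That of PC9 was lost on length-scaled values (-0.14, adjusted p = 0.147).

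TXNRD1, which regenerates reduced thioredoxin, moved in opposite directions in H1975 and HCC2935. H1975 replicates went from 322, 395 and 361 CPM to 926, 637 and 461 CPM in acute cells and 769.8, 781 and 576 CPM in persisters. HCC2935 replicates went from 266, 243 and 234 CPM to 162, 161 and 168 CPM in acute cells and 478, 227 and 306 CPM in persisters. H1975 rose by 0.85 ± 0.24 after 24 h (adjusted p = 0.0223), with a wide spread among its acute libraries, and by 0.95 ± 0.14 in persisters (adjusted p = 9.53e-04). Its acute call was lost without DMSO replicate 1 or 3 or acute replicate 2 (adjusted p from 0.0535 to 0.0662). HCC2935 fell by 0.62 after 24 h (adjusted p = 2.22e-04) and then rose by 1.04 from acute cells to persisters (adjusted p = 0.0032), whose difference from DMSO was 0.43 (adjusted p = 0.137). That difference passed without DTP replicate 2 (0.65, adjusted p = 0.0139). PC9, the line with the highest level, gave 0.01 after 24 h and 0.05 in persisters (adjusted p = 0.886 and 0.555), and HCC827 gave -0.19 and 0.01 (adjusted p = 0.258 and 0.969). On length-scaled values, which had no scaling between libraries beyond TPM, the PC9 persisters were higher by 0.31 (adjusted p = 0.00215, limma). Other members shifted upward alike in that comparison, SRXN1 from -0.41 to -0.14 and NQO1 from -0.34 to -0.07, so the value is not particular to TXNRD1.

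NQO1 diverged between lines after 24 h and was lower than DMSO in the persisters of all 4. After 24 h PC9 rose from 642, 575 and 510.3 CPM to 737, 736 and 843 CPM (0.38, adjusted p = 0.00487), and HCC2935 fell from 436, 500.0 and 443 CPM to 319, 338 and 318 CPM (-0.52, adjusted p = 8.12e-04). HCC827 went from 284, 283 and 288 CPM to 206, 183 and 266 CPM (-0.42, adjusted p = 0.0286), which was lost without DMSO replicate 1 or 3 or acute replicate 1 or 2 (adjusted p from 0.0513 to 0.105) and on length-scaled values (-0.37, adjusted p = 0.0623). H1975 went from 287, 288 and 313 CPM to 416, 384 and 321 CPM without passing (0.27, adjusted p = 0.0907), and passed without acute replicate 3 (0.37, adjusted p = 0.0207).
In persisters the replicates were 236, 161 and 232 CPM in HCC2935, 119, 159 and 187 CPM in HCC827, 217, 195 and 122 CPM in H1975 and 493, 462 and 448 CPM in PC9. Every persister library lay below every DMSO library of its line. The falls from DMSO were 1.14 ± 0.14 in HCC2935 (2.21-fold lower, adjusted p = 2.03e-04), 0.86 in HCC827 (adjusted p = 0.00355), 0.77 in H1975 (adjusted p = 0.0107) and 0.34 in PC9 (adjusted p = 0.00425). The PC9 fall depended on the scale, at 0.18 (adjusted p = 0.0798) with library size alone and 0.07 (adjusted p = 0.467, limma) on length-scaled values. With library size alone the median over all genes of that comparison stood at 0.18 rather than 0.02. Against acute cells NQO1 was lower in PC9 (-0.71), H1975 (-1.09) and HCC2935 (-0.63), with adjusted p from 1.50e-04 to 0.00693, and gave -0.49 in HCC827 (adjusted p = 0.0844). The HCC827 value passed under DESeq2 (-0.49, adjusted p = 0.04).

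HMOX1, which frees iron and biliverdin from heme, moved in opposite directions in the persisters of different lines. In H1975 its replicates rose from 152, 131 and 172 CPM to 249, 296 and 270.1 CPM after 24 h (0.77 ± 0.12, adjusted p = 0.00195) and stood at 45.2, 36.5 and 25.5 CPM in persisters. The 3 groups were fully separate, and the persisters were 4.36-fold below DMSO (log2 -2.12 ± 0.20, adjusted p = 1.57e-04) and 7.72-fold below acute cells (-2.95 ± 0.20, adjusted p = 1.70e-04). HCC827 moved the other way. Its replicates went from 17.6, 15.4 and 16.7 CPM in DMSO through 12.7, 11.2 and 15.4 CPM in acute cells to 25.2, 41.1 and 79.7 CPM in persisters, a rise of 1.57 ± 0.35 over DMSO (adjusted p = 0.00873) with a broad spread among the persisters.
PC9 rose from 17.5, 20.4 and 14.5 CPM to 39.1, 44.6 and 45.5 CPM after 24 h (1.26, adjusted p = 3.00e-05) and stood at 31.4, 31.3 and 38.1 CPM in persisters (0.91, adjusted p = 1.75e-04). Its decline from acute cells (-0.34, adjusted p = 0.0258) was lost without acute replicate 2 or 3 or DTP replicate 1 or 2 (adjusted p from 0.0679 to 0.0882) and was -0.08 on length-scaled values (adjusted p = 0.531). HCC2935 went from 22.1, 21.1 and 23.3 CPM to 29.8, 24.1 and 35.3 CPM after 24 h (0.40, adjusted p = 0.0553). In that comparison replicates with the same number varied together, and with the number as a block the difference passed (0.38, adjusted p = 0.0228), as it did without acute replicate 2 (0.53, adjusted p = 0.0169) and under DESeq2 (adjusted p = 0.0357). Its persisters differed from DMSO by 0.16 (adjusted p = 0.349).

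AKR1C1 rose after 24 h in 3 lines, from low levels in H1975 and HCC2935. In HCC2935 the replicates went from 0.905, 1.91 and 3.07 CPM to 9.42, 9.28 and 12.1 CPM (5.14-fold, log2 2.36 ± 0.38, adjusted p = 7.04e-04) and were at 3.28, 4.69 and 5.93 CPM in persisters (1.23, adjusted p = 0.0416). H1975 went from 1.34, 2.2 and 1.92 CPM to 4.82, 3.58 and 3.24 CPM (1.03, adjusted p = 0.0206), and PC9 from 74.8, 55.5 and 36.7 CPM to 83.9, 78.2 and 120.4 CPM (0.72, adjusted p = 0.0264). Treated and control libraries did not overlap in these 3 lines. HCC827 read 0.31, 0.0478 and 0.271 CPM in DMSO and 0.614, 0.857 and 0.706 CPM in acute cells (1.74, adjusted p = 0.0518), on at most 18.2 estimated counts per library. The HCC2935 persister call was lost without DMSO replicate 1 or 2 or DTP replicate 2 or 3 (adjusted p from 0.0858 to 0.139). The acute calls were lost without DMSO replicate 2 or 3 or acute replicate 3 in PC9 (adjusted p from 0.068 to 0.101), where DESeq2 gave 0.0607, and without DMSO replicate 1 or 3 or acute replicate 1 in H1975 (adjusted p from 0.0586 to 0.0618). From acute cells to persisters AKR1C1 fell by 0.80 in PC9 (adjusted p = 0.006) and by 1.14 in HCC2935 (adjusted p = 0.00449).

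AKR1B10 rose in some lines and arms and fell in others. PC9 replicates went from 30.0, 37.8 and 33.4 CPM to 49.3, 40.2 and 44.8 CPM after 24 h (0.37, adjusted p = 0.0168) and to 22.3, 20 and 18.4 CPM in persisters (-0.78, adjusted p = 1.99e-04). Persister libraries thus lay below, and acute libraries above, those of DMSO. The acute call was lost without DMSO replicate 1 or 3 or acute replicate 1 (adjusted p from 0.052 to 0.0779). H1975 read 1.59, 0.732 and 2.12 CPM in DMSO, 1.87, 6.6 and 5.91 CPM in acute cells and 1.19, 0.658 and 0.288 CPM in persisters. Its acute and DMSO groups overlapped, and the acute rise (1.62 ± 0.55, adjusted p = 0.0446) was lost without DMSO replicate 1, 2 or 3 or acute replicate 2 or 3 (adjusted p from 0.0633 to 0.143). HCC827 persisters at 1.27, 1.86 and 1.34 CPM lay below DMSO at 3.51, 2.58 and 6.45 CPM (-1.47, adjusted p = 0.0276), which was lost without DMSO replicate 1 or 3 or DTP replicate 1 or 3 (adjusted p from 0.0521 to 0.116). Against acute cells AKR1B10 fell by 1.14 in PC9, 1.39 in HCC827 and 2.77 in H1975 and rose by 1.77 in HCC2935, where it went from 0.536, 0.464 and 0.549 CPM to 2.44, 1.17 and 1.69 CPM (adjusted p from 1.29e-04 to 0.0116). That rise was lost without HCC2935 DTP replicate 1 (1.47, adjusted p = 0.0509).

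Tested directly, the response to 24 h of drug differed between the 4 lines for 8 of the 9 members (all but GCLC, adjusted p = 0.101), beside 40.5% of all genes tested. In persisters against DMSO it differed for 6 of 9 (NFE2L2, GCLM, TXNRD1, SRXN1, HMOX1 and AKR1B10), beside 61.6% of all genes. NQO1 and AKR1C1 were close to the threshold there (adjusted p = 0.0543 and 0.0528), and both passed under DESeq2 (adjusted p = 0.0223 and 0.0427). GCLC (adjusted p = 0.0787) passed on length-scaled values (0.0203, limma), with library size as the only scaling (0.039), with a replicate block (0.0322) and without H1975 DMSO replicate 2, H1975 DTP replicate 3 or HCC827 DTP replicate 1 or 3 (0.0205 to 0.0485). GCLM is an example of a difference in size, with a fall in every line from 0.37 in PC9 to 1.43 in HCC827, and HMOX1 of one in sign.

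One day after drug removal few members differed from persisters. Against persisters 2 of 36 pairs passed, both in PC9, 1 higher and 1 lower, beside 6.48% of all pairs (3.67% higher and 2.8% lower, and 22.2% in PC9). GCLM in PC9 went from 155, 147 and 157 CPM to 189, 196 and 173 CPM (0.28, adjusted p = 0.0138, and 0.0522 in a fit of all 15 libraries of the line), with no overlap, and AKR1B10 fell further from 22.3, 20 and 18.4 CPM to 10.7, 13.3 and 11.7 CPM (-0.76, adjusted p = 0.00347). In the other lines 0 of 27 pairs passed with edgeR, beside 0% of all genes in HCC827 and H1975 and 3.52% in HCC2935, while 5 had an unadjusted p under 0.05 and DESeq2 called 1, NFE2L2 in HCC2935 (-0.25, adjusted p = 0.0249). In HCC827 and H1975 replicates with the same number varied together in this comparison, and with the number as a block GCLM (0.50, adjusted p = 0.0393) and SRXN1 (0.24, adjusted p = 0.0492) passed in H1975 and none passed in HCC827. GCLM replicates in H1975 were 14.3, 20.4 and 11.3 CPM in persisters and 20.8, 21.5 and 20.2 CPM after a day, and without DTP replicate 2 the difference passed as well (0.72, adjusted p = 0.0444). The GCLM difference was positive in all 4 lines, from 0.28 in PC9 to 0.46 in H1975, but passed in PC9 alone without the block.

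After the long washout the members that differed from persisters were all in PC9, which had 7 days without drug. Against persisters 5 of 36 pairs passed, all higher and all in PC9 (background 5.63%, with 3.71% higher and 1.92% lower, and 17.3% in PC9). GCLM reached 256, 241 and 213 CPM (0.67, adjusted p = 0.0262), NQO1 816, 786 and 543 CPM (0.65, adjusted p = 0.0345) and SRXN1 283, 251 and 216 CPM (0.47, adjusted p = 0.0403). AKR1B10 reached 41.3, 34.0 and 26.3 CPM (0.78, adjusted p = 0.0334) and AKR1C1 107, 119 and 72.6 CPM (0.92, adjusted p = 0.0296). Replicate 3 was the lowest of the long-washout libraries for each of these 5 genes, and its MKI67 level was 265 CPM, against 396 and 439.9 CPM in the other two. Without it all 9 members passed in PC9, NFE2L2 (-0.34) and HMOX1 (-0.80) as lower and GCLC (0.38) and TXNRD1 (0.28) as higher, and without any 1 of the other libraries, DTP replicates 1, 2 and 3 and long washout replicates 1 and 2, the count fell to 0. At the same time all genes called in PC9 went from 2496 to 6815 without replicate 3, and to between 0 and 98 without the others. In the other 3 lines 0 of 27 pairs passed with edgeR (background 0% in HCC827, 0.0136% in H1975 and 5.16% in HCC2935), 3 had an unadjusted p under 0.05 and DESeq2 called 1, GCLC in HCC2935 (-1.01, adjusted p = 0.00658).

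Set against DMSO, the long washout left 16 of 35 tested pairs different (8 higher, 8 lower), beside 41.5% of all pairs (20.9% higher, 20.5% lower, and by line 30.6% in PC9, 39.7% in HCC827, 55.0% in H1975 and 39.9% in HCC2935). In PC9 NQO1 (0.32), GCLM (-0.05), SRXN1 (0.07) and AKR1B10 (0.01) did not pass against DMSO (adjusted p from 0.158 to 0.96), while GCLC at 68.1, 65.8 and 57.5 CPM was higher (0.65, adjusted p = 0.00709), as were NFE2L2 at 177, 157 and 206 CPM (0.40, adjusted p = 0.0337) and AKR1C1 (0.85, adjusted p = 0.0434). The NFE2L2 call was lost without DMSO replicate 1, 2 or 3 or long washout replicate 1 (adjusted p from 0.083 to 0.112), and that of AKR1C1 without DMSO replicate 2 or 3 or long washout replicate 1 or 2 (adjusted p from 0.0818 to 0.121). Without long washout replicate 3, NQO1 (0.48, adjusted p = 0.00665) and TXNRD1 (0.33, adjusted p = 0.0158) were higher than DMSO in PC9.
NQO1 remained lower than DMSO in the other 3 lines, at 159, 187 and 152 CPM in HCC827 (-0.78), 152, 179.8 and 189 CPM in H1975 (-0.82) and 158, 231 and 278 CPM in HCC2935 (-1.01), with adjusted p from 2.03e-04 to 0.00206. HMOX1 stayed lower in H1975 at 25.6, 34.6 and 41.2 CPM (-2.22, adjusted p = 4.24e-05) and higher in HCC827 at 36.9, 60.3 and 27.8 CPM (1.33, adjusted p = 0.00309). GCLM stayed lower in H1975 at 12.1, 15.5 and 15.5 CPM (-1.74, adjusted p = 4.84e-05) and in HCC827 (-0.85, adjusted p = 0.00182), and TXNRD1 stayed higher in H1975 (1.04, adjusted p = 5.01e-05). In HCC2935 after 10 days NFE2L2 at 212, 206 and 212 CPM was still higher (0.47, adjusted p = 0.00337), AKR1B10 was higher at 1.66, 3.57 and 5.55 CPM (1.87, adjusted p = 0.01) and GCLC was lower at 6.06, 14.1 and 9.08 CPM (-0.84, adjusted p = 0.0304). The GCLC call was lost without DMSO replicate 1, 2 or 3 or long washout replicate 1 or 3 (adjusted p from 0.0577 to 0.0832), and the matching one in H1975 (-1.02, adjusted p = 0.0178) without DMSO replicate 3 or long washout replicate 2 or 3 (adjusted p from 0.0577 to 0.0658).

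Around the members, 49 further genes of the pathway were taken in 5 lists. Apart from KEAP1 and BACH1, the list genes named below were picked by their calls or mean change in persisters. Their likeness between lines in persisters is therefore partly set by that choice. In persisters against DMSO, 58 of 184 tested pairs were higher and 60 lower, beside 25.7% and 26.0% of all pairs, and the median log2 fold change of the 49 genes lay between -0.01 and 0.17 in the 4 lines, beside -0.00 to 0.02 for all genes. Of the 12 regulators of NRF2, 15 of 48 pairs were higher and 13 lower, with medians from -0.10 to 0.33. MAFK, a small MAF partner of NRF2, rose in all 4 lines, from 36.8, 41.0 and 34.7 CPM to 106, 87.3 and 105 CPM in H1975 (1.37) and by 0.43 in HCC2935, the last lost without DTP replicate 1 (adjusted p = 0.0548). NFE2L1, a relative of NRF2 that governs proteasome genes, rose in all 4 lines by 0.28 to 0.70, and SQSTM1, the autophagy receptor that can sequester KEAP1, rose by 0.45 in PC9, 1.16 in HCC827 and 0.76 in HCC2935.
KEAP1 passed in 1 line. It gave 0.21 in PC9, 0.40 in HCC827 and 0.19 in H1975 (adjusted p from 0.0713 to 0.298) and was lower in HCC2935 at 57.0, 50.6 and 64.4 CPM against 68.4, 79.3 and 65.8 CPM (-0.32, adjusted p = 0.0429), a call lost without DMSO replicate 1 or 2 or DTP replicate 1 or 2 (adjusted p from 0.0879 to 0.191), with RLE size factors (0.0559), with at least 10 counts in every library (0.0729) and with a replicate block (0.0835). On length-scaled values it gave -0.16 (adjusted p = 0.282, limma). Its ligase partners CUL3 and RBX1 each fell in 3 of 4 lines, by 0.41 to 0.45 and 0.40 to 0.69, with the H1975 calls of both lost without DMSO replicate 1 or 3 or DTP replicate 1 or 3 (adjusted p from 0.0565 to 0.114). BACH1, the repressor of HMOX1, rose in H1975 from 20.2, 23.6 and 25.1 CPM to 77.6, 63.3 and 55.6 CPM (1.48, adjusted p = 1.81e-04), in the line and arm where HMOX1 was 4.36-fold lower. In PC9 persisters, where HMOX1 was higher, BACH1 was higher as well (0.22, adjusted p = 0.0467), a call lost without DMSO replicate 1 or 2 or DTP replicate 1, 2 or 3 (adjusted p from 0.0617 to 0.141). In HCC827 persisters, where HMOX1 was also higher, BACH1 gave 0.36 (adjusted p = 0.0989), and in HCC2935 it gave 0.15 (adjusted p = 0.225). After 24 h BACH1 had also risen in H1975 (0.91, adjusted p = 8.38e-04), as had HMOX1, in HCC827 (0.86, adjusted p = 0.0016), where HMOX1 gave -0.37, and in HCC2935 (0.38, adjusted p = 0.0116, and 0.051 without DMSO replicate 2), where HMOX1 gave 0.40. How the levels of BACH1 and HMOX1 relate was not tested.

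Genes of the glutathione and thioredoxin list were mixed, with 11 of 37 tested pairs higher and 16 lower in persisters and medians from -0.51 to 0.10. For this and the following lists the background is 25.7% of all pairs higher and 26.0% lower, with medians over all genes from -0.00 to 0.02. TXN, thioredoxin itself and the substrate of TXNRD1, fell in all 4 lines by 0.56 to 1.03, in PC9 from 352, 346 and 344 CPM to 203, 185 and 181 CPM, and did so after 24 h as well (0.63 to 1.17 lower). GSTM3, a glutathione transferase, rose in all 4, most in HCC2935 from 5.27, 6.35 and 3.68 CPM to 80.9, 83.6 and 85.5 CPM (4.02, adjusted p = 8.46e-07). PRDX1, a peroxiredoxin, and MGST1, a membrane-bound transferase, each fell in 3 lines. ABCC1, in the same list, rose in HCC827 (0.47), H1975 (0.33) and HCC2935 (0.59) and fell in PC9 (-0.39, or -0.12 with adjusted p = 0.192 by limma on length-scaled values). For NADPH supply, 5 of 24 pairs were higher and 12 lower, with medians from -0.56 to -0.14. ME1, the malic enzyme of the cytosol, was lower in PC9 (-0.40, or -0.13 with adjusted p = 0.15 by limma on length-scaled values), HCC827 (-0.50) and H1975 (-0.53) and higher in HCC2935 (0.43, adjusted p = 0.00453). The ME1 call was lost in HCC827 without DMSO replicate 1 or DTP replicate 1 or 2 (adjusted p from 0.0551 to 0.0868), and in H1975 without DMSO replicate 3 or DTP replicate 1 (0.0617 and 0.0587).
Iron and heme genes gave 12 of 24 pairs higher and 5 lower, with medians from -0.08 to 0.77. FTL, the ferritin light chain, rose in all 4 lines by 0.65 to 0.96, and in HCC2935 from 309, 316 and 306 CPM to 689, 486 and 532 CPM. BLVRA, which reduces the biliverdin that HMOX1 makes, fell in PC9 from 33.5, 36.3 and 34.2 CPM to 6.01, 5.19 and 6.12 CPM (-2.62) and rose in HCC827 from 11.2, 8.08 and 11.7 CPM to 24.0, 38.0 and 38.0 CPM (1.71). Of the carbonyl and xenobiotic enzymes and other targets, 15 of 51 pairs were higher and 14 lower, with medians from -0.14 to 0.27. AKR1C3, a close relative of AKR1C1, rose in H1975 (2.08) and HCC2935 (2.62) and in HCC827 (0.89), the last lost without any 1 of its 6 libraries but DMSO replicate 3 (adjusted p from 0.0592 to 0.138). EPHX1, a microsomal epoxide hydrolase, rose in PC9 (0.94), HCC827 (1.38) and H1975 (0.66), and the carbonyl reductase CBR3 fell in PC9 (-0.73), H1975 (-2.70) and HCC2935 (-1.04, lost without DMSO replicate 1 or 3 or DTP replicate 2, adjusted p from 0.0619 to 0.0631). Ferritin, GSTM and AKR1C genes have near-identical copies, so their counts are uncertain in the same way as those of AKR1C1. Of the 87 calls that the 30 named pathway genes gave in persisters, 20 were lost when 1 of the 6 libraries was left out.

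**Figure D4:**
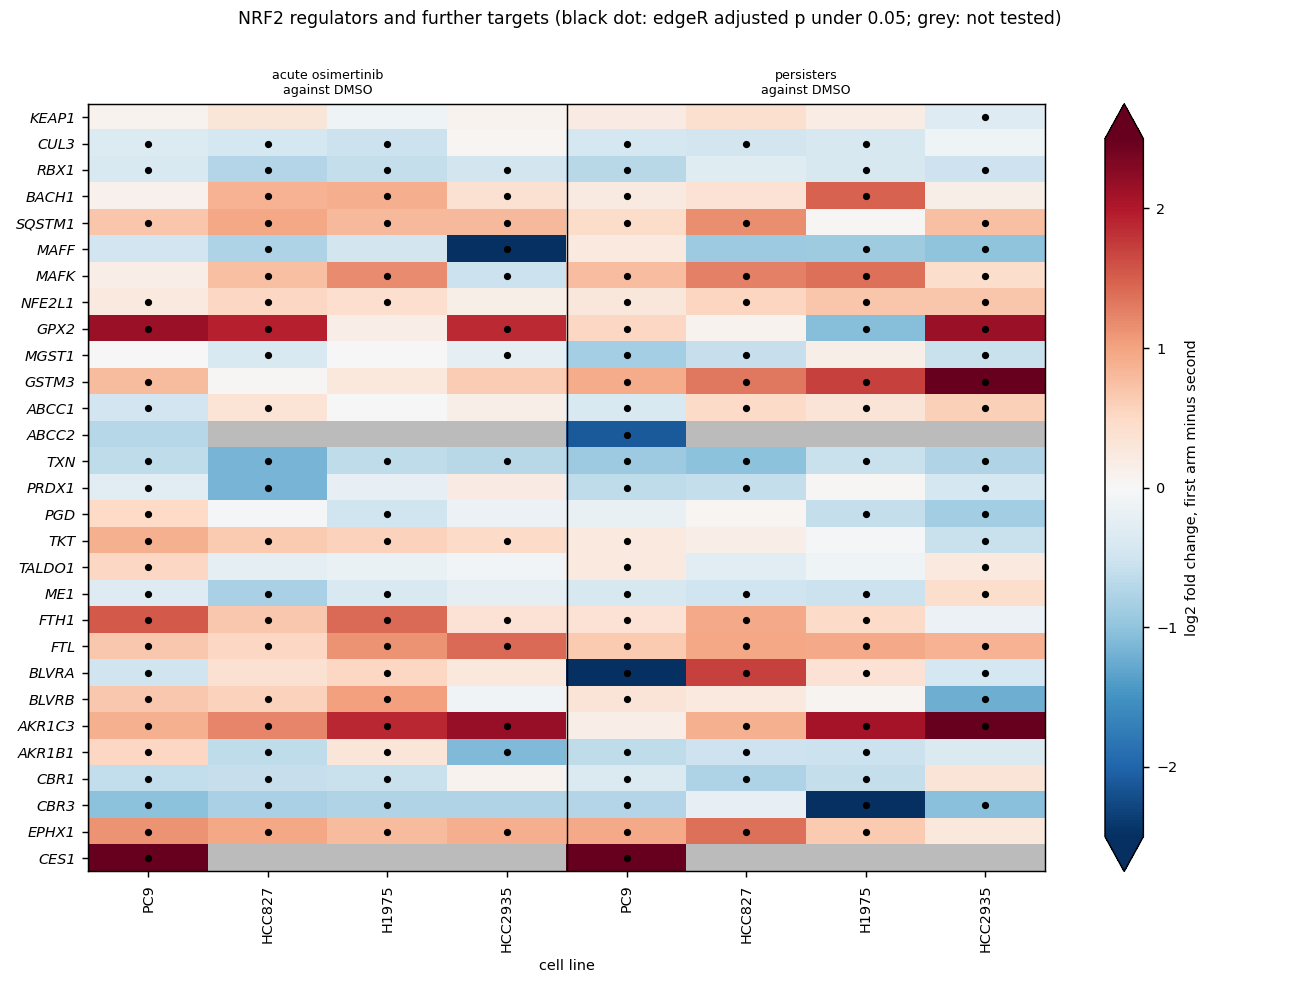
Log2 fold change (colour) of NRF2 regulators and further targets (rows) in the 4 lines under acute osimertinib and in persisters, each against DMSO (columns). Black dots mark adjusted p under 0.05 and grey cells were not tested. Apart from KEAP1 and BACH1, the rows are list genes picked by their calls or mean change in persisters, so likeness between lines there is partly set by the choice. Among them MAFK, NFE2L1, GSTM3 and FTL are higher and TXN lower in the persisters of all 4 lines.

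NFE2L2 and its targets did not vary as one unit. With the mean of each line subtracted, the correlation of NFE2L2 with the targets over 60 libraries ran from -0.338 (GCLM) to 0.31 (TXNRD1), values that describe libraries sharing lines and arms. Over the 10424 genes averaging 10 CPM or more, those whose log2 CPM followed NFE2L2 most closely were UPK3B (r = 0.851), UPK2 (0.841), SERINC3 (0.839), GPR107 (0.837) and PPP1R3B (0.836), and none of these is in the pathway lists. Among those closest to the mean of the 8 targets were GSR (0.735), PIR (0.627), AKR1B1 (0.626) and STRIP2 (0.625), and of these GSR, PIR and AKR1B1 are. GSR, glutathione reductase, was lower in H1975 persisters (-0.93, adjusted p = 6.07e-04).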

How the data were processed

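RNA-seq (TruSeq mRNA libraries) was measured in 60 libraries of 4 lines, 5 arms and 3 replicates. For each gene symbol the authors deposited an estimated count and a log2 value of TPM with 0.01 added. Their processing notes name HISAT2 2.1.0, Salmon 0.8.2 and hg38, with the role of each not given in the sources used here. The growth protocol in the labels names only H1975 for all samples, and 0 columns lacked a sample. Totals were 17715463 to 49134084 counts a library, and replicates differed by 8.97 to 138 times the counting error.

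The estimated counts were rounded and tested with edgeR 4.0.16 in R 4.3.3 (TMM, filterByExpr, quasi-likelihood F test, Benjamini-Hochberg adjustment, calls at adjusted p under 0.05). Each contrast used the 6 libraries concerned, levels between lines the 12 DMSO libraries, and differences between lines 24 libraries. CPM values were scaled by TMM over all 60 libraries. A length-scaled value is the deposited log2 TPM, tested with limma 3.58.1. It was taken as deposited, with no TMM or other scaling between libraries. A difference of scale between arms or lines can therefore shift many genes alike in these values. DESeq2 1.42.0, other scalings and filters, log2(TPM + 1), a replicate block, a threshold of 0.01, each library left out and a fit of 15 libraries a line were the alternatives. Tables were made with Python 3.11.15, pandas 2.3.3 and numpy 2.4.6, and figures with matplotlib 3.10.9.

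Same-numbered replicates were checked for pairing: every pair correlated above 0.1 in 3 of 24 contrasts (HCC827 and H1975 short washout, HCC2935 acute), with pairs from -0.603 to 0.662. The numbers come from the labels, which tie them to no shared culture. On simulated data with 200 changed genes, 81.5% were recovered for the acute contrast of PC9 (13921 genes) and 58.5% for the persister contrast of HCC827 (13747 genes), with 6.86% and 4.88% of calls false. For DMSO between lines 63% were recovered, and for the difference between lines under acute drug 50.5%, with 4.55% and 6.48% of calls false. The real acute contrast of PC9 called 9636 of 14076 genes, far more than were changed here, so these rates do not measure that case.

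The members and lists were chosen with earlier results of these data known. Named besides the 9 members were KEAP1 and BACH1, list genes called in 1 direction in at least 3 lines in persisters, the 2 highest and 2 lowest of each list, and the 5 genes most like NFE2L2 and the 5 most like the mean of the targets. One gene that this rule names is not reported here.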

Additional observations from a re-analysis of the deposited data

Results flagged for a closer look

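Each of these results is a response that differed between the 4 lines by a test of the difference itself (edgeR, line by arm, adjusted over all genes). Under 24 h of osimertinib the adjusted p was 2.00e-05 for HMOX1, 1.45e-04 for NQO1, 3.22e-04 for TXNRD1, 0.00356 for GCLM, 0.0073 for NFE2L2, 0.00942 for AKR1B10, 0.0211 for AKR1C1 and 0.0351 for SRXN1. On the log2 scale the HMOX1 response ran from -0.37 in HCC827 to 1.26 in PC9, that of NQO1 from -0.52 in HCC2935 to 0.38 in PC9, and that of TXNRD1 from -0.62 in HCC2935 to 0.85 in H1975. GCLM ran from -1.43 in HCC827 to -0.37 in PC9, NFE2L2 from 0.15 in HCC2935 to 0.63 in PC9, and SRXN1 from -1.21 in PC9 to -0.43 in HCC827. AKR1B10 ran from -0.97 in HCC2935 to 1.62 in H1975 and AKR1C1 from 0.72 in PC9 to 2.36 in HCC2935. SRXN1 lost its call with a replicate block (0.0647) and without PC9 DMSO replicate 1, PC9 acute replicate 1 or 2, HCC827 DMSO replicate 1 or 3, or HCC827 acute replicate 1 or 3 (to 0.0819). AKR1C1 lost its call with a block (0.0599), on length-scaled values (0.134), and without HCC2935 DMSO replicate 1 or 2 or acute replicate 3 (to 0.0686).

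In persisters against DMSO the adjusted p was 6.31e-07 for HMOX1, 0.0024 for NFE2L2, 0.00489 for SRXN1, 0.0116 for AKR1B10, 0.0182 for TXNRD1 and 0.0194 for GCLM. HMOX1 ran from -2.12 in H1975 to 1.57 in HCC827 on the log2 scale, NFE2L2 from 0.16 in H1975 to 0.62 in PC9, SRXN1 from -0.41 in PC9 to 0.61 in HCC827, AKR1B10 from -1.47 in HCC827 to 0.81 in HCC2935, TXNRD1 from 0.01 in HCC827 to 0.95 in H1975 and GCLM from -1.63 in H1975 to -0.56 in HCC2935. The call for GCLM was lost without H1975 DMSO replicate 3 or DTP replicate 1 or 3 (to 0.0657), that for TXNRD1 without H1975 DMSO replicate 1 (0.0515), and that for AKR1B10 without HCC2935 DTP replicate 1 (0.0525).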

How the results depend on the processing

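At a threshold of 0.01 the members called went from 23 to 15 under acute osimertinib, from 20 to 13 in persisters, from 2 to 1 after the short washout, from 5 to 0 after the long washout against persisters, and from 6 to 3 for the difference between lines in persisters. In a fit of all 15 libraries of a line the short washout gave 1 and the long washout against persisters 8. Leaving out 1 library at a time, the counts ran from 20 to 24 (acute), 18 to 21 (persisters), 18 to 20 (persisters against acute), 2 to 3 (short washout), 0 to 9 (long washout against persisters), 14 to 18 (long washout against DMSO), 7 to 9 and 5 to 9 (differences between lines, acute and persisters) and 9 to 9 (DMSO). No direction reversed for a called contrast of a member within a line. The cause of these shifts was not tested.

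With the replicate number as a block, 4 members passed after the short washout against 2 without it. Among all genes the block gave 1697 calls against 0 in H1975, 2 against 0 in HCC827, 2023 against 3221 in PC9 and 244 against 503 in HCC2935 after the short washout, and 38 against 745 in HCC2935 after the long washout. Where numbers pair nothing by the check above, these values only describe the fit. In comparisons without that pairing the block also ended the calls of NFE2L2 (adjusted p = 0.0583, edgeR) and SRXN1 (0.0762) in acute HCC827, AKR1B10 (0.096) and AKR1C1 (0.0699) in acute H1975, AKR1B10 in HCC827 persisters (0.0634) and NFE2L2 in PC9 after the long washout against DMSO (0.0589), and added GCLC in H1975 persisters (0.0404) and NQO1 in HCC827 persisters against acute cells (0.0381).

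DESeq2 called 4226 genes in PC9, 1702 in HCC2935, 72 in H1975 and 7 in HCC827 after the long washout against persisters (edgeR 2496, 745, 2 and 0), and 399 in H1975 and 1163 in HCC2935 after the short washout. The fit of all 15 libraries called 5532 in PC9 and 1758 in HCC2935 (long washout against persisters), 880 in PC9 (short washout) and 6672 against 4278 in PC9 (long washout against DMSO). With library size alone, the split of higher and lower calls moved in PC9 from 2782 and 2978 to 4240 and 1900 (persisters against acute, median 0.15) and from 2219 and 2059 to 2906 and 1404 (long washout against DMSO, median 0.12). The same scaling moved the split from 2780 and 3037 to 3406 and 2474 in HCC827 (acute, median 0.10), from 4864 and 4943 to 3530 and 6584 in PC9 against H1975 under DMSO (median -0.30) and from 4346 and 4369 to 3443 and 5541 in HCC827 against H1975 (median -0.17).

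Outside PC9, AKR1B10 stayed at or below 6.6 CPM and AKR1C1 at or below 12.1 CPM in every library, which limits both. With 3 replicates a group, the spread is poorly known in every contrast.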
